A study of Mus musculus with 10 samples.

Results

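The fibroblast growth factor (FGF) ligands, their receptors and the inhibitors that FGF signalling switches on were examined in the RNA-sequencing libraries of mouse reprogramming lines. The members were every gene symbol of the deposited table that is an *Fgf* ligand with a number, *Fgfr1* to *Fgfr4*, *Fgfrl1*, *Fgfbp1* or *Fgfbp3*, a Sprouty gene (*Spry*), a Spred gene (*Spred1* to *Spred3*), *Dusp4*, *Dusp5* or *Dusp6*. The rule uses names only. The rule found 37 genes of 18901, and 2 further symbols of the family, *Fgf6* and *Spry3*, are not listed. Of the 37, 34 reached a deposited value of 10 in 2 or more libraries and were tested among 17075 genes, while *Fgf20*, *Fgf22* and *Fgf23* were below that level.

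The lines all came from a cross of MF1 and 129 mice. The starting cells were Oct4-GFP MEF, embryonic fibroblasts whose green reporter is driven from the *Oct4* locus, grown in DMEM with 10% FCS and taken at passages 2 and 4. The pre-iPS line had stalled part way, with its green reporter still off and its viral factors still made, and the fully reprogrammed lines were 1 'control' line and the 'rNetrin-1-derived' clones 1 and 2, the latter made with recombinant Netrin-1 (rNetrin-1). Reprogramming used retroviruses for Oct4, Sox2, Klf4 and c-Myc, and each of these 4 lines was taken at passages 5 and 25. The labels give KSR and LIF as the medium of the iPS cells, while the study's methods also name a form of it with the added inhibitors of MEK and GSK3 known as 2i, and which of them the sequenced cells were in is not settled by the sources used here. MEK is the kinase that activates ERK, and the part of the medium in the levels of ERK-induced genes was not tested. Each line is 1 clone or culture with 2 libraries, so a p-value between lines rests on the spread between passages and not between independently made clones. In the test of passage it rests on how the change varied over the 4 reprogrammed lines. Poly(A) RNA was read as 50-nt single reads on a shared lane, and 38110410 to 52946856 reads per library fell on genes.

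FGF ligands bind receptor tyrosine kinases on the cell surface together with heparan sulphate or Klotho proteins, and the receptors pass the signal through Frs2, Grb2, Sos and Ras to the kinase ERK. ERK in turn induces Sprouty, Spred and Dusp proteins, which damp the same pathway, so their transcripts are commonly read as a gauge of it. In mouse embryonic stem cells Fgf4 made by the cells themselves drives ERK and prepares them to leave the naive state, whereas fibroblasts make ligands of the Fgf7 group that act on neighbouring epithelium.

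Promoters of *Fgf4*, *Fgf5*, *Fgf3* and *Fgfbp1* are shown because the differences between lines described below turn on these genes. They are 300 bases each from RefSeq on GRCm38.p6, 250 before and 50 after the annotated start, given 5′ to 3′ on the strand of the gene. Capitals mark a GC box (GGGCGG, either strand) or a TATA box (TATAAA, either strand). *Fgf4* is at chr7:144861136-144861435 (plus strand), *Fgf5* at chr5:98253934-98254233 (plus), *Fgf3* at chr7:144838362-144838661 (plus) and *Fgfbp1* at chr5:43981750-43982049 (minus).
Fgf4: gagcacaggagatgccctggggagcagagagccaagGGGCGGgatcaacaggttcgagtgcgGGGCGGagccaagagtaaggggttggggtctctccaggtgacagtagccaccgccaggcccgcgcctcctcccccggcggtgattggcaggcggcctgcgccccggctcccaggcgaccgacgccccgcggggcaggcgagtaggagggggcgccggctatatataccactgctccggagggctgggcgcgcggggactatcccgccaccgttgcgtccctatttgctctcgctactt
Fgf5: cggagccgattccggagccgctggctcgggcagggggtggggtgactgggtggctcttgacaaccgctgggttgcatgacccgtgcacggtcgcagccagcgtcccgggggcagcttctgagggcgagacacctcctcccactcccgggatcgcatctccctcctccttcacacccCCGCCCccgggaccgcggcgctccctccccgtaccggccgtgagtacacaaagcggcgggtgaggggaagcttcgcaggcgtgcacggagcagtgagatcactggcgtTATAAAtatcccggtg
Fgf3: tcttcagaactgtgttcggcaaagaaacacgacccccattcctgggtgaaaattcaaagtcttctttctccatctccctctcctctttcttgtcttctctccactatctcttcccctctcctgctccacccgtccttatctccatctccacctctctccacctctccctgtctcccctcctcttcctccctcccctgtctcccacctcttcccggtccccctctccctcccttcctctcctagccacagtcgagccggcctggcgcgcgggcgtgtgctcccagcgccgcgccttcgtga
Fgfbp1: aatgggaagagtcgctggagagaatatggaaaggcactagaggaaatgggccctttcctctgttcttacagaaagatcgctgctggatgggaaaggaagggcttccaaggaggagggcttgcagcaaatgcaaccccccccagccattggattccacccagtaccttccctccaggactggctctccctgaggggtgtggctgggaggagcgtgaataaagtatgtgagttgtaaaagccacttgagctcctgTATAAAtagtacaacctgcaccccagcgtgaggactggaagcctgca
The *Fgf4* window held 28 CpG sites and 2 GC boxes, starting at −214 and −188 from the start. The *Fgf5* window held 29 CpG sites, 1 GC box at −74 on the other strand and the letters TATAAA at 34. The *Fgf3* window had 14 CpG sites and neither motif, and the *Fgfbp1* window had 4 CpG sites and the letters TATAAA at 3. Both TATAAA matches lie after the annotated start and are matches of letters only. The *Fgf4* window holds tatatata before its start, which is not the string searched for and is not marked. Over 32851 promoters of the same length the median was 7 CpG sites, 35.7% held a GC box and 13.6% a TATA box. An octamer (ATGCAAAT), a Sox motif (CATTGTT) and an Ets motif (CCGGAAG) searched on both strands were in none of the 4 windows and in 1.74%, 3.78% and 8.86% of all. A window was found for 28 of the 37 members, and *Fgf1*, *Fgf8*, *Fgf17*, *Fgf16*, *Fgf20*, *Fgf15*, *Fgfr1*, *Spry4* and *Dusp4* have none here.

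Values below are the deposited values, reads brought by the authors to a common library size, in which 1 read is worth 0.888 to 1.18. A gene was called where the limma adjusted p was under 0.05 and the difference on the log2(value + 1) scale was 1 or more in size. *Fgf3*, *Fgf8* and *Fgf17* passed the filter for testing only through the iPS libraries, and *Fgf2* and *Fgf16* only through MEF. The p-values of their differences from the groups where they are low therefore add no support for the direction. The summed level of 12 fibroblast markers in the iPS libraries was 0.661 to 1.19% of the MEF mean, and in the pre-iPS libraries 0.698 to 0.742%. The two-sided exact permutation test of 2 libraries against 6 cannot go below p = 0.0357. It stood at that floor for each member called in MEF or pre-iPS cells against the iPS lines. This test shuffles libraries as if they were independent, which passages of the same line are not. Its p therefore cannot speak for differences between independently made lines. An SD with n = 6 below likewise counts libraries and not lines.

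MEF differed from the 3 iPS lines in 25 of the 34 members, 12 higher and 13 lower, against 48.2% of all genes tested (21.6% higher and 26.6% lower). Pre-iPS cells differed from the iPS lines in 10 members, 1 higher and 9 lower, against 16.3% of all genes. By direction the share of all genes was 4.71% higher and 11.6% lower. The median log2 fold change of the members was −0.185 for MEF and −0.208 for pre-iPS cells, with medians of −0.087 and 0.001 over all genes. Both comparisons use the same 6 iPS libraries. In both, *Fgf5*, *Fgf3*, *Fgf8*, *Fgf17*, *Fgf15* and *Fgfr4* were lower than in iPS cells. *Fgf10*, *Fgf14* and *Fgfr2* were higher in MEF and lower in pre-iPS cells. Another 16 were called for MEF alone, *Fgf9* for pre-iPS cells alone, and 8 for neither. Pre-iPS cells and MEF differed in 22 members, 9 higher and 13 lower in pre-iPS cells, against 43.2% of all genes (22.4% higher and 20.9% lower). Under quantile normalization the 10 calls in pre-iPS against iPS cells became 11, with 4 higher and 7 lower.

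**Figure D1:**
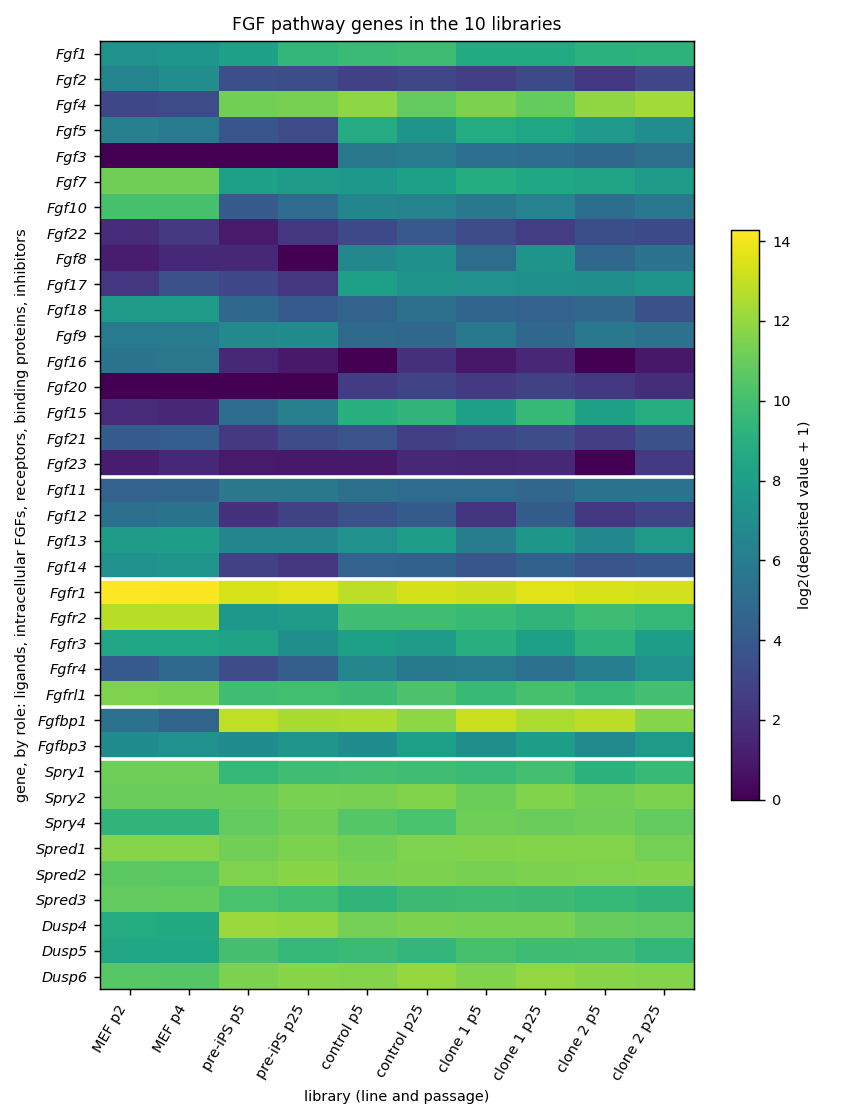
Deposited values of the 37 members, as log2(value + 1), in the 10 libraries, in rows by role with white lines between roles (ligands, intracellular FGFs, receptors, binding proteins, inhibitors). *Fgf3* is at 0 in the 4 MEF and pre-iPS libraries, *Fgf4* is between 1804 and 4919.6 in the iPS libraries, and each inhibitor is at 371 or above in every library.

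*Fgf4*, *Fgf3* and *Fgf15* lie next to each other on chromosome 7, within 62.9 kb on the plus strand, and differed from each other in their level in pre-iPS cells relative to iPS cells. *Fgf4* (chr7:144847367-144865243), the embryonic stem cell ligand, had 7.17 and 8.43 in the MEF libraries, 2409 and 2598 in pre-iPS cells, and from 1804 to 4919.6 with a median of 3213 in the 6 iPS libraries. Both pre-iPS libraries stood inside the iPS range, and MEF far below it. The log2 fold change of MEF against iPS cells was −8.39 (SE 0.26, limma adjusted p = 2.44e-08), while the pre-iPS difference of −0.23 had an SE of 0.26 and an adjusted p of 0.505 in limma.

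*Fgf3* (chr7:144838083-144844436), a ligand of inner ear and tail development, had no read in any MEF or pre-iPS library. The 6 iPS libraries had from 27.8 to 57.4, with a median of 37.0, so the groups were completely apart. Taking 3 reads per library as the level that a count of 0 still allows, the MEF level was at least 11.5-fold lower than the iPS mean and the pre-iPS level at least 13.3-fold lower (limma adjusted p = 2.86e-07 and 4.15e-06).

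*Fgf15* (chr7:144896531-144900953), whose human counterpart is the gut hormone FGF19, was intermediate in pre-iPS cells. It had 2.37 and 2.12 in MEF, 33.7 and 73.0 in the pre-iPS line and from 286 to 767, median 495, in iPS cells, so the 3 sets of libraries formed separate steps. The log2 fold change against iPS cells was −7.16 in MEF (SE 0.41, limma adjusted p = 6.12e-07) and −3.20 in pre-iPS cells (SE 0.41, limma adjusted p = 0.00056). Pre-iPS cells were above MEF by 3.96 on the log2 scale (SE 0.51, limma adjusted p = 0.000125).

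*Fgf5* (chr5:98254184-98277030), a marker of the epiblast after implantation, was lowest in the pre-iPS line. It had 72.8 and 59.3 in MEF against 13.3 and 8.64 in pre-iPS cells and from 127 to 442, median 268, in iPS cells. Against iPS cells the log2 fold change was −4.45 in pre-iPS cells (SE 0.37, limma adjusted p = 5.61e-05) and −1.94 in MEF (SE 0.37, limma adjusted p = 0.00119). Pre-iPS cells also fell below MEF, with a difference of −2.51 (SE 0.46, limma adjusted p = 0.00108).

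In the Fgf8 group, *Fgf8* and *Fgf17* were low in MEF and pre-iPS cells and higher in each iPS library, while *Fgf18* of the same group, given below, was highest in MEF. *Fgf8*, which patterns the gastrula and the midbrain boundary, had 1.23 and 2.10 in the MEF libraries, 2.04 and 0 in pre-iPS cells and from 24.8 to 164, median 70.4, in iPS cells. *Fgf17*, its close relative in the midbrain, had 3.83 and 10.5 in MEF, 7.14 and 3.84 in the pre-iPS line and from 138 to 264, median 157, in iPS cells. No iPS library overlapped either other line for *Fgf8* or *Fgf17*. The log2 fold change of pre-iPS cells against iPS cells was −5.25 for *Fgf8* (SE 0.64, limma adjusted p = 0.000408) and −4.74 for *Fgf17* (SE 0.37, limma adjusted p = 3.87e-05). MEF and pre-iPS cells were not separated for *Fgf8* (log2 difference −0.59, SE 0.78, limma adjusted p = 0.519).

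The markers of the primed epiblast were *Otx2*, *Pou3f1*, *Dnmt3b*, *Lef1*, *Sox3*, *T* and *Foxa2*. Like *Fgf5*, *Fgf8* and *Fgf17*, all 7 were called lower in pre-iPS cells and in MEF than in iPS cells. Their summed value was 247 to 278 in MEF, 1615 to 1668 in pre-iPS cells and 10905 to 21458 in the iPS libraries. The pre-iPS sum was mostly *Dnmt3b* (1487 and 1462). Between pre-iPS cells and MEF, 3 of the 7 were called higher in pre-iPS cells and 1 lower, whereas *Fgf5* was lower there. Of the 8 naive pluripotency markers 7 were called lower in pre-iPS cells than in iPS cells. *Otx2*, *T*, *Foxa2* and the naive marker *Dppa3* passed the filter for testing only through the iPS libraries. Their calls against iPS cells therefore add no support for the direction. The part of either marker list in the ligand differences was not tested.

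**Figure D2:**
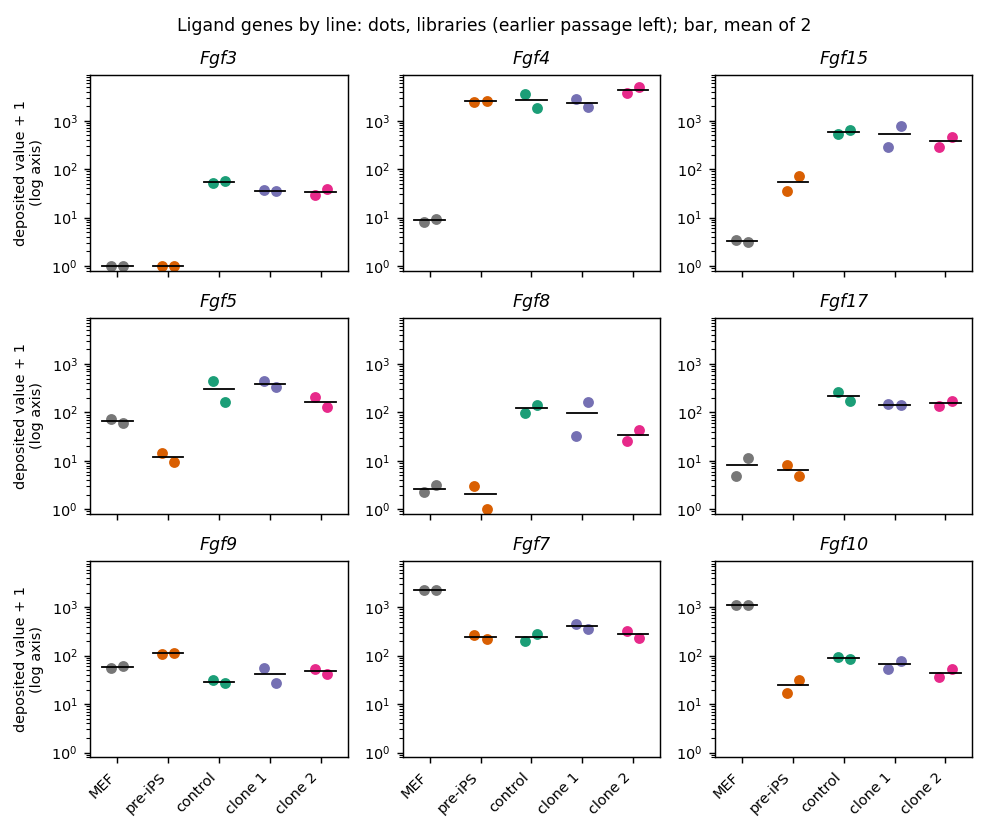
Deposited value + 1 on a log axis for 9 ligand genes, with a dot for each library (the earlier passage on the left) and a bar at the mean of the 2 libraries of a line. *Fgf4* in pre-iPS cells is within the range of the iPS libraries, while *Fgf3*, *Fgf5*, *Fgf8* and *Fgf17* are below all of the iPS libraries there, and *Fgf7* and *Fgf10* are highest in MEF.

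In the Fgf7 group, *Fgf3*, given above, had no read in MEF, whereas *Fgf7* and *Fgf10* were highest there. *Fgf7*, the keratinocyte growth factor made by mesenchyme, had 2287 and 2318 in MEF against 271 and 219 in pre-iPS cells and from 196 to 458, median 302, in iPS cells. *Fgf10*, which directs limb and lung budding, had 1113 and 1108 in the MEF libraries, 16.3 and 30.7 in pre-iPS cells and from 34.7 to 90.9, median 65.2, in iPS cells. MEF stood above every other library for both genes. Against iPS cells MEF were higher in *Fgf7* by 2.95 (SE 0.19, limma adjusted p = 1.21e-06) and in *Fgf10* by 4.15 (SE 0.28, limma adjusted p = 1.58e-06) on the log2 scale. *Fgf22*, an organiser of synapses, was at 14.6 or below in all libraries and was not tested.

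*Fgf10* was also lower in pre-iPS than in iPS cells, by −1.42 as a log2 fold change (SE 0.28, limma adjusted p = 0.00475). Without the passage 5 pre-iPS library it was −0.98 with a limma adjusted p of 0.0543, and under quantile normalization −0.87 with 0.0383, neither of them a call. As a share of the MEF mean, iPS cells had 13.4% for *Fgf7* and 5.84% for *Fgf10*, and pre-iPS cells 10.6% and 2.12%. Most fibroblast markers were at a smaller share, such as 0.67% for *Col1a1* in iPS cells, but *Dcn* was at 19.1% and *Twist2* at 26.4%. The study's methods name both gelatin and irradiated fibroblasts as supports for these lines, and which of these applied to the sequenced cells is not given in the sources used here. In bulk libraries fewer cells of a type and less RNA per cell cannot be told apart, and the part of feeder RNA in these levels was not tested.

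Other ligands highest in MEF were *Fgf2*, *Fgf18* and *Fgf16*. *Fgf2*, the basic FGF that supports fibroblasts and human pluripotent cells, had 85.8 and 126 in MEF, 10.2 and 9.60 in the pre-iPS line and from 3.97 to 8.21, median 6.48, in iPS cells. The MEF libraries were apart from the others (log2 fold change 3.88 against iPS cells, SE 0.32, limma adjusted p = 5.59e-06). *Fgf18*, a ligand of cartilage and bone, had 200 and 217 in MEF against 27.5 and 15.4 in pre-iPS cells and from 10.7 to 37.5, median 23.1, in iPS cells (log2 fold change of MEF against iPS cells 3.18, SE 0.37, limma adjusted p = 4.98e-05).

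*Fgf16*, a heart ligand on chromosome X, had 44.1 and 49.5 in MEF and at most 3.13 in the other libraries. Its log2 fold change in MEF against iPS cells was 4.66 (SE 0.56, limma adjusted p = 6.22e-05), and it passed the filter for testing through MEF alone. *Fgf9*, which acts in the gonad and lung, was the only member called higher in pre-iPS than in iPS cells, though quantile normalization called 3 more. It had 105 and 115 there, 55.8 and 59.1 in MEF and from 26.1 to 54.2, median 35.6, in iPS cells, with no overlap between the 3 sets. The log2 fold change of pre-iPS against iPS cells was 1.56 (SE 0.28, limma adjusted p = 0.00287). *Fgf20*, a ligand of the inner ear, was at 0 in MEF and pre-iPS cells and between 2.68 and 6.26 in iPS cells, below the level tested.

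*Fgf1*, the acidic FGF that binds every FGF receptor, was lowest in MEF, with 158 and 179, and from 417 to 902, median 583, in iPS cells. The pre-iPS passages were far apart from each other, at 290 and 695, and overlapped the iPS range. In MEF it was lower than in iPS cells by −1.82 as a log2 fold change (SE 0.27, limma adjusted p = 0.000234). The hormone-like ligands other than *Fgf15* were scarce. *Fgf21*, a liver hormone of fasting, had 16.6 and 17.9 in MEF and from 4.96 to 11.6, median 8.17, in iPS cells, and its MEF call (1.06, SE 0.42, limma adjusted p = 0.0453) was lost when either MEF library was left out (1.11 and 1.01, adjusted p = 0.137 and 0.171 in limma), and also without the passage 25 control, either clone 1 or the passage 5 clone 2 library. *Fgf23*, the phosphate hormone of bone, reached at most 4.47 and was not tested.

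Per kb of exons, the ligand with the highest level was *Fgf7* in MEF and *Fgf4* in the reprogrammed lines. *Fgf7* made up 55.9% ± 0.69 (SD, n = 2) of the summed ligand level per kb in MEF. *Fgf4* made up 76.0% ± 2.5 (SD, n = 2) in pre-iPS cells and 55.9% ± 13 (SD, n = 6) in iPS cells. The next in iPS cells were *Fgf15* with 9.94% ± 5.0, *Fgf5* with 6.85% ± 3.4, *Fgf1* with 6.84% ± 2.6, *Fgf17* with 5.97% ± 1.3 and *Fgf7* with 5.84% ± 2.4 (SD, n = 6 each), and neighbours in this order were within their SD of each other. The sum over ligands per kb was 1269 ± 27.7 in MEF, 1033 ± 88.6 in pre-iPS cells and 1708 ± 300.4 in iPS cells.

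The 4 intracellular FGFs do not act on the receptors, and several of them modulate sodium channels. *Fgf14* had 147 and 171 in the MEF libraries, 6.12 and 3.84 in pre-iPS cells and from 11.9 to 21.3, median 17.4, in iPS cells, so each set was apart from the others. Against iPS cells it was higher in MEF (log2 fold change 3.18, SE 0.28, limma adjusted p = 7.77e-06) and lower in pre-iPS cells (−1.58, SE 0.28, limma adjusted p = 0.00262), at 4 to 6 reads a library in the latter. Under quantile normalization the pre-iPS difference was −0.77 (limma adjusted p = 0.0549) and not called. *Fgf12* was higher in MEF, with 35.9 and 43.2 against 3.54 to 17.5, median 8.45, in iPS cells (2.13, SE 0.52, limma adjusted p = 0.00475). *Fgf11* had 21.4 and 23.2 in MEF, 49.0 and 51.8 in the pre-iPS line and from 25.7 to 42.6, median 34.0, in iPS cells. *Fgf13*, on chromosome X, had 225 and 246, 88.8 and 94.1, and from 65.7 to 242, median 164. Neither was called against iPS cells, and between pre-iPS cells and MEF the log2 fold change was 1.14 for *Fgf11* (SE 0.26, limma adjusted p = 0.00398) and −1.35 for *Fgf13* (SE 0.50, limma adjusted p = 0.0375). The *Fgf11* call was lost under quantile normalization. The *Fgf13* call was lost there too, and without either MEF or either pre-iPS library (−1.42 to −1.29, limma adjusted p up to 0.13).

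**Figure D3:**
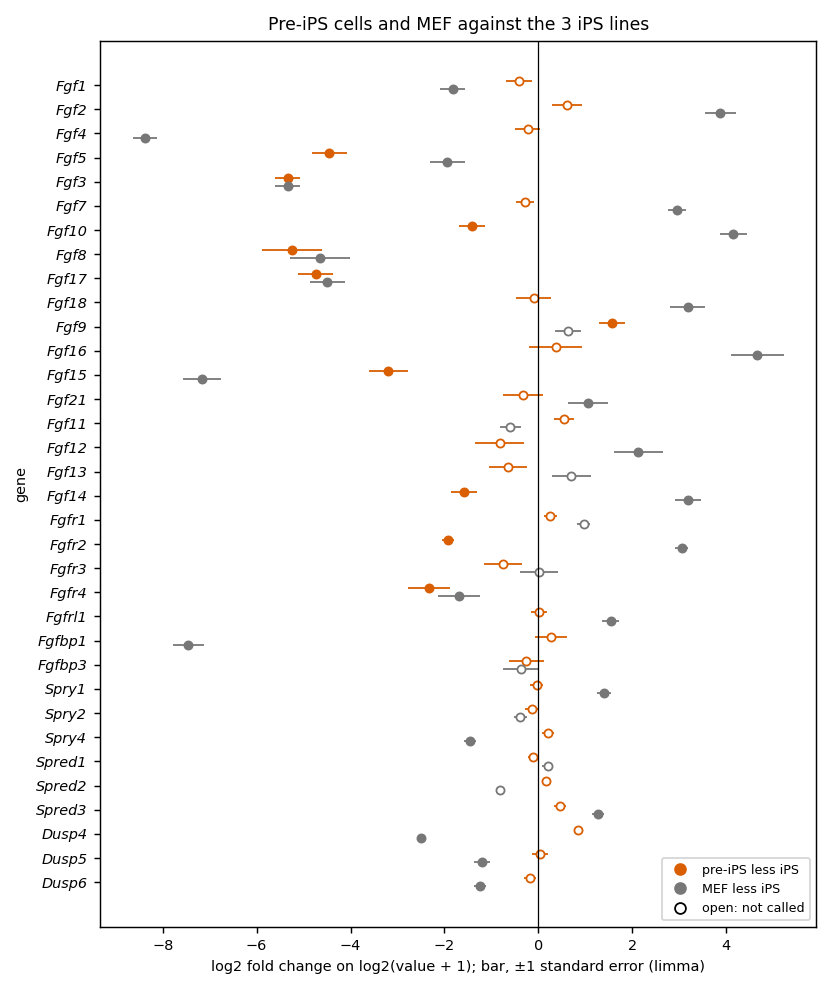
Log2 fold change of pre-iPS cells (orange) and MEF (grey) against the mean of the 3 iPS lines for the 34 members tested, with bars of 1 standard error from limma and filled dots for called genes. The differences of MEF run from −8.39 for *Fgf4* to 4.66 for *Fgf16*, and the pre-iPS dots of the inhibitors lie between −0.19 and 0.84.

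Among the receptors, *Fgfr1* was the most abundant in every line and *Fgfr2* separated the lines. *Fgfr1* (chr8:25513654-25575718), the main receptor of fibroblasts and embryonic stem cells, had 19722 and 18747 in MEF against 11033 and 12506 in pre-iPS cells and from 7428 to 12032, median 10220.0, in iPS cells. MEF were above all others by 0.96 on the log2 scale against iPS cells (SE 0.14, limma adjusted p = 0.000199), just short of the size needed for a call, which it passed without the passage 25 control library or the passage 25 clone 1 library (up to 1.04). The pre-iPS libraries overlapped the iPS range.

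*Fgfr2* (chr7:130162451-133123350), whose splice forms answer to different ligands and which marks early endoderm precursors in the blastocyst, had 6791 and 6907 in MEF. Pre-iPS cells had 197 and 239, and iPS cells from 649 to 967, median 867. The 3 sets of libraries did not overlap. The log2 fold change against iPS cells was 3.05 in MEF (SE 0.13, limma adjusted p = 1.19e-07) and −1.93 in pre-iPS cells (SE 0.13, limma adjusted p = 1.85e-05), and it was −4.97 for pre-iPS cells against MEF (SE 0.16, limma adjusted p = 4.74e-08). As a share of the MEF mean, *Fgfr2* was at 12.2% in iPS cells and 3.18% in pre-iPS cells. The values are sums per gene and do not resolve splice forms. The span given for *Fgfr2* is the GENCODE one, and the RefSeq promoter window lies inside it, at chr7:130266759-130267058. Its exons sum to 10.33 kb against 4.429 kb for the longest transcript, so its level per kb depends on the length used. Of 8 primitive endoderm markers, 3 (*Gata6*, *Pdgfra* and *Col4a1*) were called higher and 3 (*Gata4*, *Sox17* and *Lama1*) lower in MEF than in iPS cells, and 5 were called lower in pre-iPS cells. They summed to 76325 to 79484 in MEF, 5771 to 5807 in pre-iPS cells and 9148 to 28334 in iPS cells. The MEF sum was mostly *Col4a1* (63403 and 60055) and *Pdgfra* (15091 and 15342), which fibroblasts also express, and *Sox17* was at 0 there. *Sox17* passed the filter for testing only through the iPS libraries, so its calls against iPS cells add no support for the direction. The part of primitive endoderm cells in the *Fgfr2* difference was not tested.

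*Fgfr4* (chr13:55152640-55168759), the receptor for Fgf15 in liver, had 15.9 and 28.3 in the MEF libraries, 9.18 and 19.2 in pre-iPS cells and from 39.0 to 157, median 63.5, in iPS cells. It was higher in each iPS library than in any other. The log2 fold change was −1.69 in MEF (SE 0.44, limma adjusted p = 0.00684) and −2.33 in pre-iPS cells (SE 0.44, limma adjusted p = 0.0039). Both calls rested on single libraries, since without the passage 2 MEF library the first was −1.30 (limma adjusted p = 0.0855) and without the passage 5 pre-iPS library the second was −1.83 (limma adjusted p = 0.0509). Quantile normalization also ended the MEF call.

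*Fgfr3*, which restrains growth of cartilage, had 335 and 344 in MEF, 294 and 134 in the pre-iPS line and from 237 to 607, median 277, in iPS cells. Both the MEF and the pre-iPS libraries overlapped the iPS range, and it was not called in either comparison with iPS cells. *Fgfrl1*, a receptor-like protein without a kinase, had 2910 and 2726 in MEF against 966 and 988 in pre-iPS cells and from 796 to 1265, median 959.9, in iPS cells. MEF were higher than iPS cells by 1.54 (SE 0.17, limma adjusted p = 3.81e-05), and pre-iPS cells lay inside the iPS range.

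Per kb of exons, *Fgfr1* supplied 73.1% ± 1.0 (SD, n = 2) of the 4 kinase receptors in MEF, 95.5% ± 1.2 (SD, n = 2) in pre-iPS cells and 86.5% ± 3.2 (SD, n = 6) in iPS cells. *Fgfr2* supplied 24.9% ± 0.85, 1.69% ± 0.10 and 7.12% ± 1.9 of them in the same order. *Fgfr3* and *Fgfr4* had 4.39% ± 1.9 and 1.99% ± 1.2 in iPS cells.

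**Figure D4:**
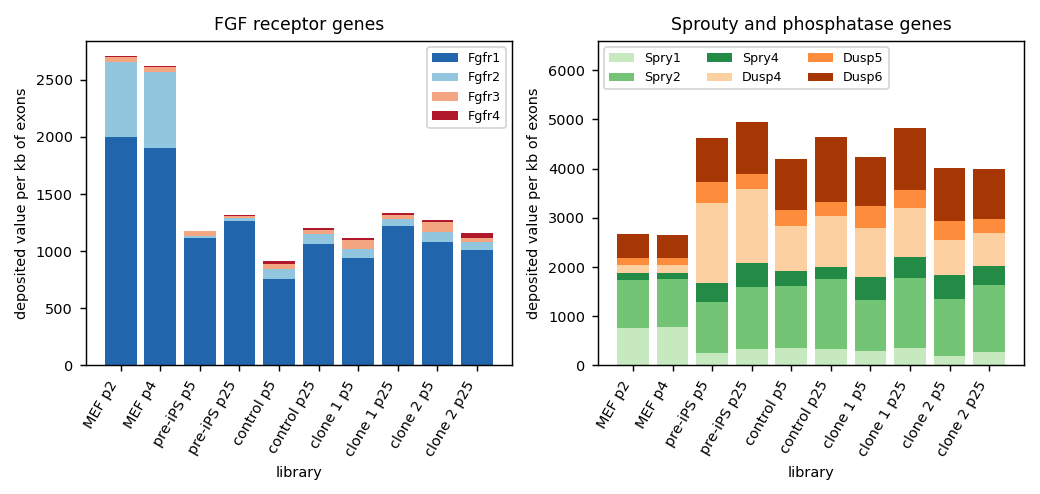
Deposited value per kb of exons in each library, stacked for the 4 FGF receptor genes (left) and for 6 Sprouty and phosphatase genes (right), with axes that start at 0. *Fgfr2* is 24.9% of the receptor bar in MEF but 1.69% in the pre-iPS line, and *Dusp4* is smallest in MEF and largest in pre-iPS cells.

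Of the secreted binding proteins, *Fgfbp1* (chr5:43978858-43981779), which frees FGFs from the matrix, was low in MEF and high in each reprogrammed line. It had 38.4 and 23.4 in the MEF libraries, 7605 and 5655 in pre-iPS cells and from 3257 to 8911, median 5863, in iPS cells. The pre-iPS libraries lay within the iPS range and MEF far below it, with a log2 fold change against iPS cells of −7.46 (SE 0.33, limma adjusted p = 1.45e-07). Per kb it was at 2552 ± 929.7 (SD, n = 6) in iPS cells, above *Fgf4* at 981 ± 376. The 5 epithelial markers (*Cdh1*, *Epcam*, *Krt18*, *Cldn6* and *Esrp1*) moved in the same way, with a sum of 183 to 218 in MEF and 29319 to 48965 in the reprogrammed lines, and their part in it was not tested. *Fgfbp3*, a related carrier, had 116 and 147 in MEF, 116 and 175 in the pre-iPS line and from 110 to 262 in iPS cells, and was not called.

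Of the 9 inhibitors listed, 6 were called in MEF against iPS cells, 2 higher and 4 lower, where 48.2% of all genes were called. None of the 9 was called in pre-iPS against iPS cells, against 16.3% of all genes, and there limma gave 2 with an adjusted p under 0.05 (39.6% of all genes) and 3 with an unadjusted p under 0.05. edgeR also called 0. *Dusp4* (chr8:34807297-34819894), a nuclear phosphatase of ERK and its relatives, had 432 and 409 in MEF against 4455 and 4132 in pre-iPS cells and from 1822 to 2800.2, median 2612, in iPS cells. The 3 sets formed steps without overlap. MEF were lower than iPS cells by −2.51 as a log2 fold change (SE 0.07, limma adjusted p = 2.15e-08), and pre-iPS cells were 0.84 higher (SE 0.07, limma adjusted p = 7.34e-05), under the size needed for a call.

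*Dusp6*, the cytoplasmic ERK phosphatase, had 1495 and 1456 in the MEF libraries, 2791 and 3351 in pre-iPS cells and from 3085 to 4196, median 3302, in iPS cells. *Dusp5*, the nuclear ERK phosphatase, had 375 and 371 in MEF, 1049.8 and 729 in the pre-iPS line and from 692 to 1127, median 871, in iPS cells. MEF were lowest for both, with log2 fold changes of −1.24 for *Dusp6* (SE 0.13, limma adjusted p = 2.4e-05) and −1.20 for *Dusp5* (SE 0.18, limma adjusted p = 0.00022) against iPS cells, and pre-iPS cells overlapped iPS cells.

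The Sprouty genes, inhibitors of receptor to Ras signalling, did not move together. *Spry1* had 2235 and 2256 in MEF against 724 and 953 in pre-iPS cells and from 585 to 1024, median 899, in iPS cells. *Spry4* had 648 and 645 in the MEF libraries, 1861 and 2289 in pre-iPS cells and from 1145 to 2260.3, median 1953, in iPS cells. MEF were thus highest for *Spry1* (log2 fold change 1.39, SE 0.15, limma adjusted p = 2.68e-05) and lowest for *Spry4* (−1.46, SE 0.13, limma adjusted p = 6.88e-06).

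*Spry2* had 2036 and 2029 in MEF, 2170 and 2660 in the pre-iPS line and from 2157 to 2993, median 2735, in iPS cells. This narrow range gave a MEF difference of −0.38 (SE 0.14, limma adjusted p = 0.0282), short of a call, and the adjusted p was up to 0.121 in limma without either MEF library, the passage 25 control library or the passage 25 clone 2 library. Of the Spred genes, which act on Ras through neurofibromin, *Spred3* was higher in MEF, with 1857 and 1899.6 against 634 to 914, median 809, in iPS cells (1.28, SE 0.13, limma adjusted p = 1.77e-05). *Spred2* was lower in MEF without a call (−0.82, SE 0.07, limma adjusted p = 7.12e-06). *Spred1* did not pass in MEF against iPS cells (0.20, SE 0.11, limma adjusted p = 0.134), though its MEF values of 3254 and 3219 were above the iPS range of 2391 to 3177. The inhibitors summed to 3781 ± 20.2 per kb in MEF (SD, n = 2), 6026 ± 320.2 in pre-iPS cells (n = 2) and 5468 ± 368 in iPS cells (n = 6).

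Other genes of the pathway were described from 3 lists. Of 22 coreceptors and extracellular modulators tested, 17 were higher and 2 lower in MEF than in iPS cells (48.2% of all genes called), and 4 were lower in pre-iPS cells (16.3% of all genes called). *Sdc3*, a heparan sulphate syndecan, had 17099 and 16738 in MEF and a mean of 428 in iPS cells (log2 fold change 5.31, SE 0.11, limma adjusted p = 4.94e-09). *Flrt1*, a membrane protein that binds FGF receptors, was higher in MEF by 3.95 (SE 0.21, limma adjusted p = 3.69e-07). *Klb*, the Klotho coreceptor of *Fgf15* and *Fgf21*, was lower in MEF (−4.27, SE 0.40, limma adjusted p = 1.2e-05) and in pre-iPS cells (−2.55, SE 0.40, limma adjusted p = 0.00152) than in iPS cells.

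In pre-iPS cells *Sulf1*, an enzyme that trims heparan sulphate, had 224 and 195 against 1372 to 2268 in iPS cells, and *Gpc3*, a glypican, had 138 and 132 against 791 to 1471. No library overlapped (log2 fold changes −3.09, SE 0.11, and −3.02, SE 0.16, limma adjusted p = 2.36e-06 and 5.05e-06), and both genes were higher in MEF than in iPS cells.

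Of 22 adaptors and members of the Ras to ERK cascade, 3 were higher and 2 lower in MEF, and 1 was lower in pre-iPS cells, fewer than the 48.2% and 16.3% of all genes called. The last was *Gab1*, a docking protein, with 1039 and 949 in pre-iPS cells, 1696 and 1747 in MEF and 2639 to 8379 in iPS cells (−2.35 in pre-iPS cells, SE 0.17, limma adjusted p = 2.3e-05, and −1.55 in MEF, SE 0.17, limma adjusted p = 2.68e-05). *Frs2*, the adaptor bound to the receptor, was 1.23 higher in MEF (SE 0.06, limma adjusted p = 2.62e-07) and *Rasa1*, which switches Ras off, 1.11 higher (SE 0.09, limma adjusted p = 4.35e-06).

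Of 13 transcription factors induced by FGF and ERK, 2 were higher and 5 lower in MEF than in iPS cells, near the 48.2% of all genes, and 1, *Bhlhe40*, was higher in pre-iPS cells (1.13, SE 0.31, limma adjusted p = 0.0196), against 16.3% of all genes. *Etv5*, an Ets factor that follows FGF signalling, had 1854 and 1830.5 in MEF against 22155 and 23084 in pre-iPS cells and 10986 to 18370 in iPS cells. The MEF difference was −3.03 (SE 0.13, limma adjusted p = 9.92e-08). *Etv1* was lower in MEF by a similar size (−3.05, SE 0.22, limma adjusted p = 2.62e-06), and *Elk3* was higher (1.87, SE 0.12, limma adjusted p = 1.04e-06).

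The study asked whether iPS cells made with rNetrin-1 resemble those made without it. None of the 34 members was called between the 2 clones and the control line, where 2.11% of all genes were, and edgeR also called 0. In limma 1 of them had an adjusted p under 0.05 (4.08% of all genes) and 6 an unadjusted p under 0.05. The 95% interval of the log2 difference lay within ±1 for 15 of the 34 and reached 1 or more in size for the others. The member that passed was *Spry4*. Its control libraries had 1454 and 1145, those of clone 1 had 2241 and 2059, and those of clone 2 had 2260.3 and 1847, so each clone library was above the control libraries. The difference was 0.70 (95% interval 0.39 to 1.00, limma adjusted p = 0.0278). The exact permutation p was 0.0667, the smallest that 2 libraries against 4 allow, with passages of the same line again shuffled as if independent. This adjusted p did not last, since it went to between 0.0502 and 0.184 in limma without any 1 of 7 libraries (either MEF, either control, either clone 1 or the passage 5 clone 2 library).

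*Fgf4* had 3622 and 1804 in the control, 2804 and 1902 in the libraries of clone 1 and 3747 and 4919.6 in those of clone 2. The clones as a pair differed from the control by 0.30 (95% interval −0.32 to 0.92), clone 1 by −0.15 (−0.86 to 0.57) and clone 2 by 0.75 (0.03 to 1.46). Clone 2 was 0.89 above clone 1 (0.18 to 1.61, limma adjusted p = 0.21), which was not a pass. Of the 8 naive pluripotency markers 6 were called higher in clone 2 than in clone 1, where 0.966% of all genes were called, and their part in the *Fgf4* values was not tested. For *Fgf1* the control libraries had 855 and 902, those of clone 1 had 417 and 422, and those of clone 2 had 560 and 606, below the control in each library. Its difference of −0.83 (95% interval −1.48 to −0.17) had a limma adjusted p of 0.173. For clone 1 alone it was −1.06 with an adjusted p of 0.148 in limma, and it passed the call without either pre-iPS library (adjusted p = 0.0169 and 0.0189). Taken singly, neither clone had a member called against the control (1.41% of all genes for clone 1 and 2.42% for clone 2), and the clones had none called against each other (0.966%). edgeR also called 0 in each. By the adjusted p alone limma passed 1 member in each of these comparisons (2.48%, 4.15% and 1.59% of all genes), and 4, 6 and 6 members had an unadjusted p under 0.05.

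*Dusp4* was lower in clone 2 than in the other iPS lines without reaching the size needed. The control libraries had 2497 and 2800.2, those of clone 1 had 2746 and 2726, and those of clone 2 had 1962 and 1822. The log2 difference was −0.48 from the control (95% interval −0.69 to −0.28, limma adjusted p = 0.027) and −0.53 from clone 1 (95% interval −0.74 to −0.33, limma adjusted p = 0.0343). The first adjusted p rose to as much as 0.147 in limma without either MEF, either clone 2 or the passage 25 control library. The second rose to as much as 0.193 in limma without either MEF, either pre-iPS, either clone 1 or the passage 25 clone 2 library. The median gene of chromosome 8, which carries *Dusp4*, *Fgfr1* and *Fgf20*, was 0.183 higher in clone 2 than in the control, the other direction from *Dusp4*. For genes of chromosome X, which carries *Fgf13* and *Fgf16*, the median was 0.134 higher, and *Xist* had 21946 and 20013 in clone 2 against 282 to 317 in the control. Clone 1 was also low in *Xist*, with 154 and 144, while pre-iPS cells had 16030 and 22076 and MEF 52735 and 52989. The part of this in the values of *Fgf13* and *Fgf16* was not tested.

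Between passages 5 and 25 of the 4 reprogrammed lines, none of the 34 members was called by size and adjusted p, where 1.69% of all genes were, and edgeR also called 0. By the adjusted p alone 7 members passed, against 10.9% of all genes, and 13 had an unadjusted p under 0.05. *Fgf5*, *Fgfr3*, *Fgfbp1* and *Dusp5* were lower at passage 25 in 4 of 4 lines, and *Fgf15*, *Fgfbp3* and *Spry2* higher in 4 of 4. The exact paired permutation p was 0.125 for each, the smallest that 4 lines allow. Without either clone 1 library none of the 7 kept a limma adjusted p under 0.05, and without either pre-iPS or either clone 2 library *Fgfbp1* and *Fgfbp3* did and the other 5 did not (up to 0.16). *Fgf5* also lost it without either control library.

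Among these, *Fgfbp1* went from 7605 to 5655 in pre-iPS cells, 5830 to 3700 in the control, 8911 to 5896 in clone 1 and 7054 to 3257 in clone 2. Its difference was −0.70 (SE 0.10, limma adjusted p = 0.0101). *Fgfbp3* went from 116 to 175, 122 to 262, 139 to 255 and 110 to 199 in the same lines (0.85, SE 0.14, limma adjusted p = 0.0131). The differences of *Fgfr3* (−0.90, SE 0.18, limma adjusted p = 0.0252) and *Fgf15* (0.88, SE 0.18, limma adjusted p = 0.0279) were smallest in the control line, and without either control library they were −1.12 and 1.07 and passed the call. The other differences were −0.76 for *Fgf5*, −0.38 for *Dusp5* and 0.30 for *Spry2*. Of 6 trophoblast markers, *Eomes*, *Hand1* and *Krt8* were called lower at passage 25, and the 6 summed to 12962 to 20705 at passage 5 and 4729 to 8576 at passage 25. That sum was mostly *Krt8*, a keratin of simple epithelia in general. Of 5 macrophage markers tested, *Csf1r* and *Cd68* were called lower, with a sum of 1130 to 1888 at passage 5 and 564 to 1103 at passage 25. This sum was mostly *Cd68*, which had 354 to 1565 in these lines and 767 and 715 in MEF. *Lyz2* was at most 10.9 in these lines against 6824 and 6951 in MEF. In the other marker lists, 1 of 7 primed epiblast and 1 of 5 epithelial markers were called lower. In the naive pluripotency, primitive endoderm and fibroblast lists 0 were called, where 1.69% of all genes were. The part of any of these lists in the differences of the members was not tested.

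**Figure D5:**
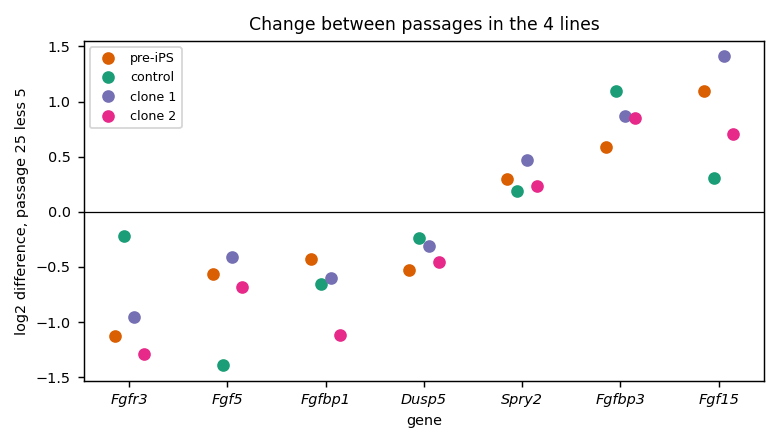
Log2 difference of passage 25 less passage 5 in each of the 4 reprogrammed lines for the 7 members with a limma adjusted p under 0.05. Each gene has its 4 dots on the same side of 0, and *Fgfr3* and *Fgf15* are closest to 0 in the control line (−0.22 and 0.31).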

How the data were processed

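RNA of 5 mouse lines (2 libraries each) was analysed. Per the submitters' processing notes, tools named are CASAVA 1.8.2, FastQC, TopHat2 2.0.8b, HTSeq 0.5.3p9 and edgeR, with build mm10. The annotation and the strand used in counting are not given in the sources used here, so overlapping and antisense genes and near-identical copies are uncertain. The authors deposited edgeR pseudo-counts, a normalized signal of reads brought to a common library size. As an alternative to them, whole reads were recovered by inverting the adjustment (dispersion 0.000389), with 100% of values whole in every library. For the 165628 values over 5 the median difference between the deposited and the rebuilt value was 3.41e-07%. Every listed gene has 10 or more reads summed over the libraries.

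The 17075 genes that reached 10 in 2 or more libraries were tested with limma 3.58.1 in R 4.3.3 (trend) on log2(value + 1), with 1 mean per line and Benjamini-Hochberg adjustment over all of them. A fold change on this scale understates the change of low genes. The passage test used the 8 libraries of reprogrammed lines and blocked on line. edgeR 4.0.16 (quasi-likelihood, TMM) on the recovered reads called 25 of the members in MEF and 10 in pre-iPS cells against iPS cells. Single genes had exact two-sided permutation tests. The limma and edgeR fits of every comparison were tried on simulated data. Members, lists and tests were chosen with earlier results of these data known. Any member could be named, and other pathway genes were the 3 with the largest called fold change per list in MEF and in pre-iPS cells against iPS cells. Marker genes, *Dcn* and *Twist2* among them, and *Xist* were used as checks.

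Passages 5 and 25 are shared by 4 lines in the labels. Across genes, each library's deviation from its line mean correlated with that of the same passage in another line (0.235 to 0.504 over 6 pairs of lines), so passage pairs the libraries. Libraries of 1 line differed beyond sampling noise in every line (chi-square per degree of freedom 2.91 in MEF and 39.3 to 55.0 in the others). Intervals of counts cover counting error only. Of 18901 symbols, 17637 matched GENCODE M21 (GRCm38) by symbol, the source of lengths and positions, and 217 matched nothing. Levels between genes are per kb of all exons of a gene. The alternatives were other pseudocounts, filters and normalizations, edgeR, only the lines compared, the block, and leaving out each library.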

Additional observations from a re-analysis of the deposited data

Results flagged for a closer look

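Over 68 groups of libraries looked at for the 34 members tested, 2 single libraries stood apart from the rest of their group, where chance gives about 1 group in 20. *Fgf8* in clone 1 at passage 25 was 164.2, the highest of the 4 rNetrin-1-derived libraries, with the nearest at 42.1. *Fgf17* in the control line at passage 5 was 264, the highest of the 6 iPS libraries, with the nearest at 169.

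Clones 1 and 2 differed from each other in *Dusp4* by −0.533 on the log2 scale, and in *Gab1*, chosen after its values were seen, by 1.184. The limma adjusted p was 0.0343 for each. The *Dusp4* difference was under the size needed for a call. Its adjusted p did not hold when certain single libraries were left out, as given above, or under another processing setting. The *Gab1* value was 3313 and 2639 in clone 1, 5388 and 8379 in clone 2, and 7225 and 5867 in the control.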

How the results depend on the processing

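Of the 25, 10 and 22 members called in MEF against iPS, pre-iPS against iPS and pre-iPS against MEF, 23, 7 and 16 were called under every alternative run. Over the named member results, 1387 values kept their direction and side of the threshold, 29 lost a call, 10 gained one and 2 reversed. Those were *Fgf11* in MEF against iPS under quantile normalization (0.499, limma adjusted p = 0.0628) and *Spry2* in pre-iPS against iPS with a pre-iPS library left out (−0.289 to 0.005, the latter without passage 5). The adjusted p alone gave 1 member in each of the 4 comparisons between iPS lines and 7 for passage. Leaving out each library gave 0 to 1 for clone 1 against the control and 0 to 2 for passage. The ranges were 23 to 25, 8 to 11 and 19 to 22 for the first 3 comparisons. Quantile normalization gave 11 in pre-iPS against iPS, split 4 higher and 7 lower in place of 1 and 9, adding *Fgf2*, *Fgf11* and *Fgf16* and losing *Fgf10* and *Fgf14*. The cause was not tested. With passage as a replicate block, pre-iPS against iPS had the same 10 members called and the comparisons between iPS lines 0, so the pairing changed no call. With the longest transcript as the length, 6 of 12 receptor shares moved, such as 70.0% for *Fgfr1* in MEF. Precision is limited by 2 libraries per line, and by fewer than 20 reads in 4 or more libraries for *Fgf2*, *Fgf3*, *Fgf8*, *Fgf12*, *Fgf14*, *Fgf16*, *Fgf17* and *Fgf21* and in 2 for *Fgf4*, *Fgf5*, *Fgf15*, *Fgf18* and *Fgfr4*.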

Other observations

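Among other pathway genes, named after their values were seen, *Elk3*, a repressor of the Ets family, was higher in the rNetrin-1-derived clones than in the control line. It had 950 and 1270 in the control, 2448 and 2805 in clone 1 and 2374 and 1975 in clone 2, so the groups did not overlap (log2 difference 1.12, SE 0.13, limma adjusted p = 0.00375). In that comparison 1 of 13 transcription factors, 0 of 22 coreceptors and modulators and 0 of 22 adaptors and cascade genes were called. The share over all genes was 2.11%. Taken singly, clone 1 had 1 of 13 transcription factors (*Elk3*) called higher than the control. It also had 1 of 22 adaptors and cascade genes (*Gab1*) called lower, where 1.41% of all genes were called. Clone 2 alone had 0 called in both lists, *Elk3* included, where 2.42% of all genes were called. Leaving out single libraries was not examined for either gene. *Fos*, an immediate early factor, went from 4465 to 2317 in pre-iPS cells, 2077 to 803 in the control, 4346 to 1303 in clone 1 and 3816 to 1516 in clone 2 between passages 5 and 25 (−1.35, SE 0.11, limma adjusted p = 0.00186), lower in 4 of 4 lines. *Il17rd* (Sef), an inhibitor of FGF signalling at the receptor, was at 918 and 1060 in pre-iPS cells against 1818 to 3822 in iPS cells, a log2 difference of −1.39 (SE 0.24, limma adjusted p = 0.00233).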
